A study of Mus musculus with 8 samples.

Results

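The genes described here are 37 mouse genes of glucose breakdown and of the response to low oxygen, read from bulk RNA sequencing of tumours of the peritoneal cavity. They were chosen by name, and all 37 were found among the 35275 genes of the deposited count table: 19 enzymes of glycolysis and lactate metabolism, 5 transporters of glucose or lactate, 3 kinases that set the rate of the pathway, and 10 genes induced by hypoxia. The labels describe a conditional mouse model of mesothelioma, a tumour of the lining of the body cavities. All animals carried floxed alleles of Nf2 and Cdkn2a, which encode tumour suppressors, and an adenovirus that expresses Cre recombinase was injected into the peritoneum, so recombination occurred in whichever cells the virus entered. Primary tumours 19, 20 and 127 were Pak2 wild-type (Nf2-/-; cdkn2a-/-; Pak2 +/+). Primary tumours 13, 14A, 59 and 61, and the secondary tumour 14B, came from mice with floxed Pak2 and are labelled Nf2-/-; cdkn2a-/-; Pak2 -/-. Pak2 encodes a p21-activated kinase. The labels give no age, do not say where tumour 14B grew, and do not say that the tumours came from separate animals, so p-values measure the spread between these samples, which may be technical.

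Glycolysis splits glucose into pyruvate in the cytosol, and lactate dehydrogenase then turns pyruvate into lactate, which leaves the cell through monocarboxylate transporters. Most steps can be run by more than one isoform: skeletal muscle uses its own phosphofructokinase, phosphoglycerate mutase and enolase, and muscle and fat use the insulin-regulated glucose transporter encoded by Slc2a4. When oxygen is scarce, prolyl hydroxylases stop marking the HIF alpha subunits for destruction, and HIF then binds short DNA motifs near many glycolytic genes and raises their transcription.

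Tumour 14B had the fewest counts, 13469851 in total, and tumour 14A the most, 20402401. Levels are given as CPM, counts scaled to library size by the TMM method, and a count of 0 would still allow 3 counts, or 0.139 to 0.193 CPM for primary tumours and 0.311 CPM for 14B. Pak2 transcripts measured 128, 90.1 and 92.7 CPM in wild-type tumours 19, 20 and 127, then 186, 238, 165 and 131 CPM for tumours 13, 14A, 59 and 61, and 239 CPM for tumour 14B. Since the targeted transcript was not lower, the second group is called labelled Pak2-null throughout. Xist, the RNA of the silenced X chromosome, measured 151, 459 and 26.6 CPM in tumours 19, 20 and 127 and most at 1.33 CPM in tumours 13, 14A, 59 and 61, so the sex of the mice and the Pak2 label cannot be told apart in most of this comparison. The summed level of 12 mesothelial markers ran from 114 to 466 CPM in the primary tumours. Tumour 14A stood apart from the rest of its group: its 8 exocrine pancreas markers summed to 29456 CPM against at most 68.5 CPM in the other primary tumours, and its 9 fibroblast and pericyte markers to 2515 CPM against at least 20728 CPM. In tumour 14B these sums were 208252 and 4485 CPM.

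The hypoxia response element is the short DNA motif that HIF reads, and its core is ACGTG or GCGTG. RefSeq promoter windows (build GRCm38.p6, 250 bases before to 50 bases after each start) were matched for 34 of the 37 genes, with 50 windows. Slc2a3, Slc2a4 and Ndrg1 are named only. The core, searched on both strands, was present in 37 of these 50 windows (74.0%) and in 29 of the 34 genes, against 43.8% of all 32851 promoter windows of the same length. By role, it was in 73.3% of 30 enzyme, 100% of 3 transporter, 80% of 5 regulator and 66.7% of 12 hypoxia-induced gene windows. The genes were chosen as glycolytic or hypoxia-induced, so the higher share is no separate support for regulation by HIF. Windows were not matched for base composition. This is a description of the letters and does not show that HIF bound there. The following stretches, read 5′ to 3′ on the strand of the gene, are shown because their genes carry the results: the members with a matched window whose levels separated the tumour groups, and Ldha as the textbook HIF target. Capitals mark each match to the core on either strand, where CACGT and CACGC are the core read on the opposite strand. The Pgam2 stretch holds no core. Its capitals mark instead the E-box CAGCTG, the form bound by muscle regulatory factors, and a match to the MEF2 motif of muscle genes.
Pgam2, chr11:5803846-5803946, minus strand: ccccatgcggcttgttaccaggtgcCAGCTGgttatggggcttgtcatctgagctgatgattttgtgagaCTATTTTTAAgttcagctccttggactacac
Eno3, chr11:70657026-70657076, plus strand: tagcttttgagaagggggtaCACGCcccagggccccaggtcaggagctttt
Bnip3, chr7:138909526-138909636, minus strand: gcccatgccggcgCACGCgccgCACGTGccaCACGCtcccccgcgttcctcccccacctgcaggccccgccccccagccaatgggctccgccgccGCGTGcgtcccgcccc
Pfkm, chr15:98092429-98092479, plus strand: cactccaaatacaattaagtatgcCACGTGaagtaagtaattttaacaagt
Hk2, chr6:82774484-82774524, minus strand: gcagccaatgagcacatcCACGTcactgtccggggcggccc
Gapdh, chr6:125165793-125165843, minus strand: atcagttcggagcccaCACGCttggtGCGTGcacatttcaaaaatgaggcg
Ldhb, chr6:142508057-142508107, minus strand: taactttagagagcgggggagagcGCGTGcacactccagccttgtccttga
Ldha, chr7:46845654-46845794, plus strand: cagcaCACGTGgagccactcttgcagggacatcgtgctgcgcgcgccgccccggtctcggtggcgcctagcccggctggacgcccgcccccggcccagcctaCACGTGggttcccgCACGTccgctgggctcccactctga
The Bnip3 and Ldha stretches hold 5 matches each, the Pfkm and Gapdh stretches 2 each, and the Eno3, Hk2 and Ldhb stretches 1 each. CAGCTG, which overlaps neither the core nor the MEF2 motif in the Pgam2 stretch, occurred in 16.3% of all promoter windows and the MEF2 motif in 3.19%. Both were searched after the Pgam2 values had been seen. Among the 50 windows of these genes the MEF2 motif occurred only in that of Pgam2, and CAGCTG in 8 (16%). Neither motif occurred in a Pfkm window, and the Eno3 window held CAGCTG only after the start.

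None of the 37 genes passed the test between the primary tumours labelled Pak2-null and the wild-type primary tumours. That test was edgeR's quasi-likelihood F-test, with p-values adjusted over all genes by the Benjamini-Hochberg method and a threshold of 0.05, and every adjusted p below comes from it. It passed 11 of 15412 genes (0.0714%), and the lowest edgeR adjusted p among the 37 was 0.103, for Pgam2. At an unadjusted p under 0.05, 7 of the 37 were lower in the tumours labelled Pak2-null, where 8.55% of all genes tested were, and 0 were higher, where 4.39% were. The 7 were Hk2, Pfkm, Pgam2, Eno3, Ldhb, Slc2a4 and Bnip3. In these 7 and in Gapdh every tumour labelled Pak2-null lay below every wild-type tumour, against 8.93% of all genes tested, and 0 of the 37 lay above throughout, against 5.07%. The log2 fold change, labelled Pak2-null minus wild-type, was below 0 for 26 of the 37 genes and above 0 for 11, with a median of -0.30 against 0.06 over all genes tested.

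The count of genes passing depended on the method. DESeq2 passed 6 of the 37, all lower (Pfkm, Pgam2, Eno3, Ldhb, Slc2a4 and Bnip3), where it passed 5.44% of all genes tested as lower. With limma-voom 0 passed as lower, against 0.130% of all genes, and with sample quality weights 7 did (Pfkm, Aldoa, Gapdh, Pgam2, Eno3, Slc2a4 and Bnip3), against 4.59%. At an unadjusted p under 0.05, limma-voom gave 8 lower and 0 higher, against 8.55% and 3.64% of all genes tested. Leaving out wild-type tumour 19 let 1 gene, Pgam2, pass edgeR's test. In that fit 59 of 15926 genes passed, 55 of them lower. Leaving out tumour 14A brought the number lower at an unadjusted p under 0.05 from 7 to 13 (10.1% of all genes tested in that fit) and the median log2 fold change to -0.66.

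**Figure D1:**
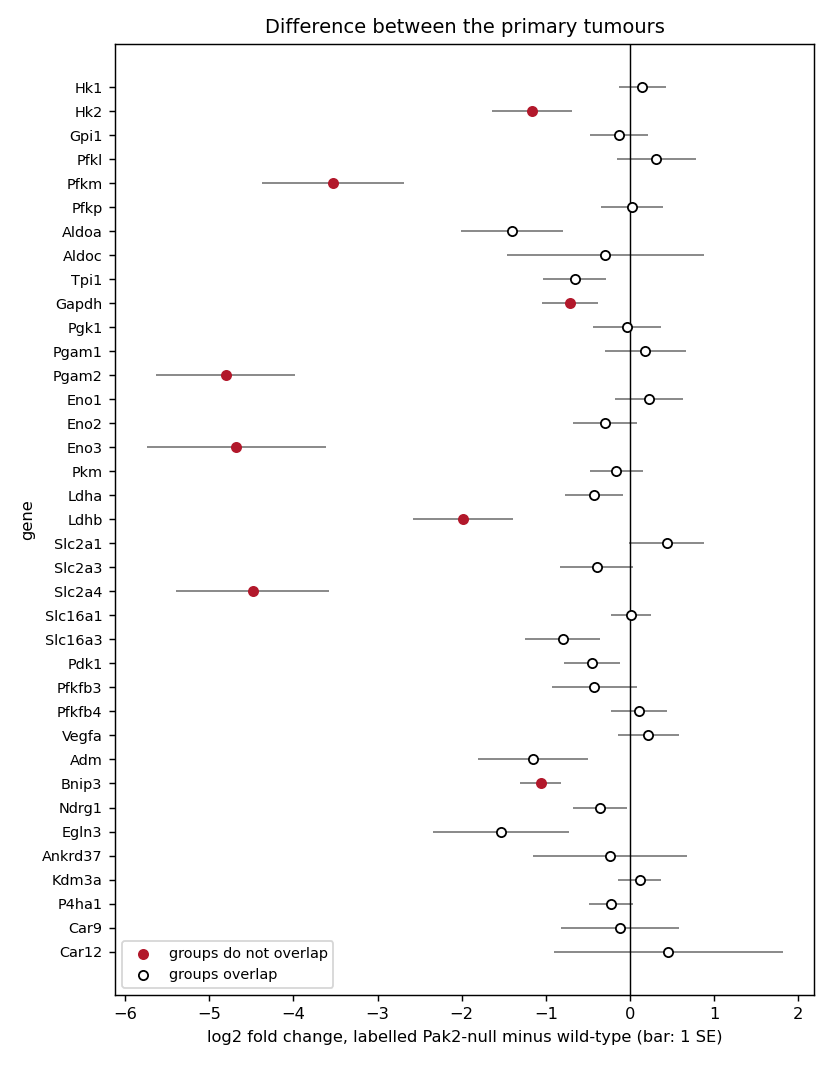
Log2 fold change of each of the 37 genes, primary tumours labelled Pak2-null (4) minus wild-type (3), with bars of 1 SE from edgeR's quasi-likelihood fit. Filled points are the 8 genes whose groups do not overlap. The lowest values are those of Pgam2, Eno3, Slc2a4 and Pfkm, between -4.80 and -3.52, and no gene passed the adjusted test.

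The largest differences among the enzymes belonged to the isoforms of skeletal muscle. Pgam2 (ENSMUSG00000020475, GRCm38 chr11:5801640-5803733, minus strand), the muscle phosphoglycerate mutase, which moves the phosphate of 3-phosphoglycerate to the next carbon, stood at 43.0, 410.3 and 201 CPM in wild-type tumours 19, 20 and 127. It stood at 3.65, 4.52, 9.01 and 13.6 CPM in tumours 13, 14A, 59 and 61 and at 2.90 CPM in tumour 14B. The groups did not overlap, and tumour 19 was the lowest of the wild-type tumours. The means were 218 ± 184 and 7.70 ± 4.60 CPM (SD, n = 3 and 4), with a log2 fold change of -4.80 (SE 0.83).

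Eno3 (ENSMUSG00000060600, chr11:70657202-70662513, plus strand), the muscle enolase, which forms phosphoenolpyruvate, measured 129, 1402 and 623 CPM in tumours 19, 20 and 127. Its levels were 5.33, 15.2, 24.3 and 66.5 CPM in tumours 13, 14A, 59 and 61 and 8.92 CPM in 14B. The lowest wild-type tumour and the highest tumour labelled Pak2-null, 19 and 61, differed less from each other than from tumour 20. With a log2 fold change of -4.68 (SE 1.06), Eno3 missed the threshold (edgeR, Benjamini-Hochberg adjusted p = 0.123).

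Pfkm (ENSMUSG00000033065, chr15:98092589-98132447, plus strand), the muscle phosphofructokinase, which commits sugar to glycolysis, measured 91.6, 713 and 585 CPM in tumours 19, 20 and 127. It stood at 39.0, 8.53, 51.9 and 59.3 CPM in tumours 13, 14A, 59 and 61, and at 10.2 CPM in 14B. The groups were apart, by a narrow gap between tumours 61 and 19. Pfkm had a log2 fold change of -3.52 (SE 0.84) and an edgeR adjusted p of 0.131 (Benjamini-Hochberg). The span of Pfkm overlaps that of Senp1 on the opposite strand, and the strand setting of the counting is not given in the sources used here.

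Among the transporters, Slc2a4 (ENSMUSG00000018566, chr11:69942539-69948188, minus strand), the insulin-regulated glucose transporter GLUT4, measured 26.6, 90.3 and 40.4 CPM in tumours 19, 20 and 127. Its levels were 0.372, 0.976, 2.47 and 5.43 CPM in tumours 13, 14A, 59 and 61 and 0.622 CPM in 14B. No tumour labelled Pak2-null came near the wild-type range. Its log2 fold change was -4.49 (SE 0.91), with a Benjamini-Hochberg adjusted p of 0.117 in edgeR.

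Skeletal muscle markers moved with these 4 genes. The summed level of 16 muscle markers (among them the actin gene Acta1, the myosin genes Myh1, Myh2 and Myh4, and the creatine kinase gene Ckm) was 2869, 33422 and 26244 CPM in tumours 19, 20 and 127. It was 12.8, 41.8, 399.7 and 812 CPM in tumours 13, 14A, 59 and 61 and 22.7 CPM in 14B. All 15 tested markers were lower at an unadjusted p under 0.05 (8.55% of all genes tested) and lay apart between the groups (8.93%). Of these 15, 0 passed edgeR's adjusted test. Tnnc2 was listed at 0 in every tumour labelled Pak2-null and at most at 0.248 CPM in the wild-type tumours. Why this marker was so low where the muscle sum was high was not tested. Myog was at 0 in 14A and 14B, and Myod1 in 13 and 14B. Ranked from highest to lowest, Pgam2, Eno3 and Slc2a4 had the same order over the 7 primary tumours, 20, 127, 19, 61, 59, 14A and 13. This was the order of the summed muscle markers, of 7 of the 16 markers singly and of 55 of the 15412 genes tested (0.357%). The 55 include these 3 genes and 7 markers. Any gene with this order has groups apart, as 1376 genes tested (8.93%) had in this direction, so that separation fixed part of the order. For Slc2a4, which fat also uses, 8 adipocyte markers summed to 1123, 1274 and 173 CPM in tumours 19, 20 and 127 and to 32.9, 327, 35.6 and 397 CPM in tumours 13, 14A, 59 and 61. The part of muscle or fat tissue in these values was not tested, and in bulk RNA fewer cells of a type and less RNA per cell cannot be told apart.

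Tumour 19, with the fewest muscle transcripts of the wild-type tumours, was also set alone against the 4 tumours labelled Pak2-null, a comparison chosen after seeing the data in which the lone tumour is taken to vary like the others. The log2 fold changes were then -2.43 for Pgam2, -2.17 for Eno3, -1.16 for Pfkm and -3.48 for Slc2a4. In this comparison edgeR's adjusted test passed none of the 37 genes and no other gene either. It therefore cannot set the 37 apart from the rest, and nothing is concluded from it. At an unadjusted p under 0.05, 5 of the 37 were lower (4.26% of all genes tested in it).

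**Figure D2:**
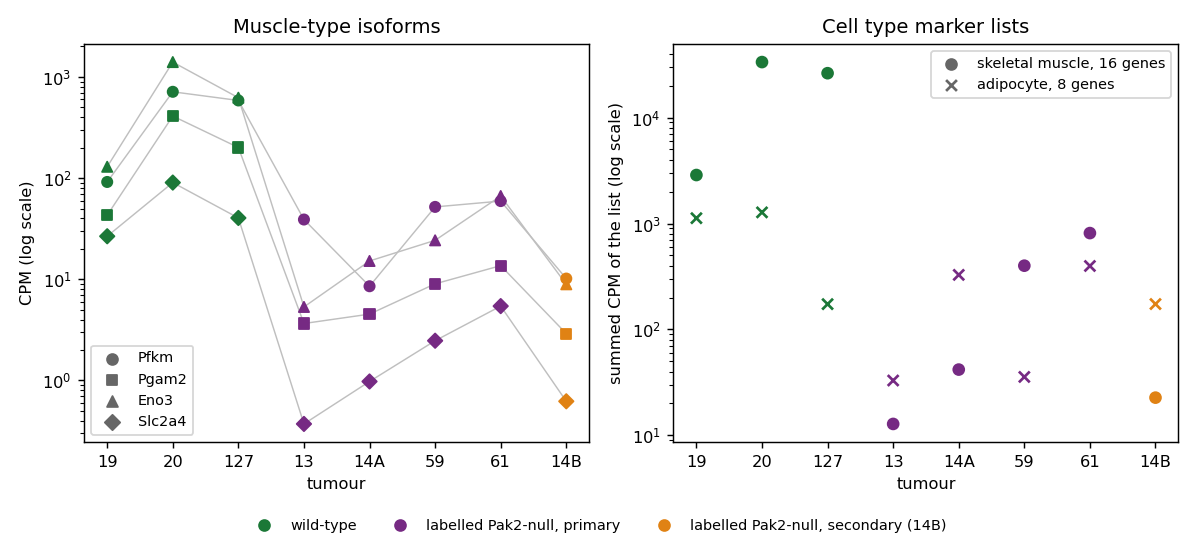
Left, CPM of the 4 muscle-type genes in each tumour on a log axis; grey lines join the values of 1 gene across the primary tumours and 14B. Right, summed CPM of 16 skeletal muscle and 8 adipocyte markers in the same tumours on a log axis. Tumours 20 and 127 are highest in all 4 genes and in the muscle sum (33422 and 26244 CPM), and tumour 19 lies between them and the tumours labelled Pak2-null.

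At 3 enzyme steps run by several isoforms, the muscle form held most of the transcripts in tumours 20 and 127 only. Shares are of CPM per kilobase of gene model, which allows a comparison between genes. Pgam2 held 27.4, 92.2 and 86.9% of phosphoglycerate mutase transcripts in the wild-type tumours and 4.44, 6.95, 13.2 and 16.7% in tumours 13, 14A, 59 and 61. Eno3 held 15.1, 84.0 and 66.8% of enolase transcripts in the wild-type tumours and 1.05, 3.37, 4.39 and 11.3% in the tumours labelled Pak2-null. Both shares were apart between the groups, and tumour 19 stood close to tumour 61 in each.

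Pfkm held 30.9, 89.6 and 84.8% of phosphofructokinase transcripts in the wild-type tumours and 22.8, 3.43, 30.9 and 34.8% in tumours 13, 14A, 59 and 61, so that here tumour 61 exceeded tumour 19. Slc2a1, the widely expressed glucose transporter GLUT1, held 72.6, 26.1 and 55.5% of the transcripts of the 3 glucose transporters in the wild-type tumours and 94.7, 89.3, 91.3 and 84.5% in the tumours labelled Pak2-null. These groups did not overlap. In exact permutation tests (two-sided) of 11 shares, the smallest p that 3 against 4 tumours allow, 0.0571, was reached for Pgam2, Eno3 and Slc2a1, and none passed Benjamini-Hochberg adjustment (adjusted p = 0.210 for each of these 3).

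**Figure D3:**
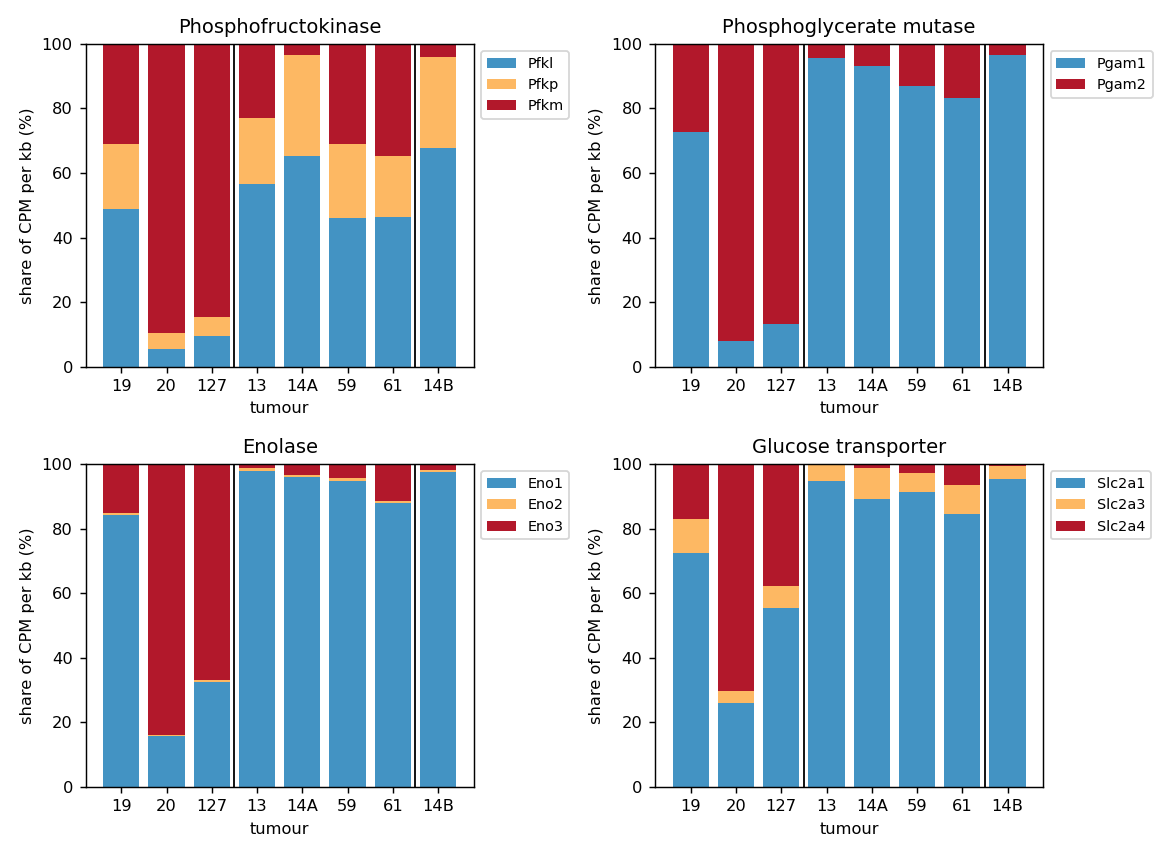
Share of each isoform in the transcripts of its family (percent of CPM per kilobase) in the 8 tumours, for phosphofructokinase, phosphoglycerate mutase, enolase and the glucose transporters; each bar is 1 tumour and sums to 100%. The red muscle forms exceed 65% in tumours 20 and 127 for the 3 enzymes, and Slc2a4 holds most of the transporter transcripts only in tumour 20.

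Apart from Pfkm, hexokinase 2 was the only enzyme of sugar preparation whose groups did not overlap. Hk2 (ENSMUSG00000000628, chr6:82725025-82774454, minus strand), the insulin- and HIF-responsive hexokinase that traps glucose as glucose 6-phosphate, measured 228, 72.4 and 76.9 CPM in tumours 19, 20 and 127 and 62.0, 72.3, 33.7 and 53.3 CPM in tumours 13, 14A, 59 and 61. The separation rested on tumours 20 and 14A, which were nearly equal, and the height of the wild-type mean on tumour 19. Its log2 fold change of -1.16 (SE 0.47) was -0.43 without tumour 19. Hk1, the housekeeping hexokinase, had overlapping groups, 132, 77.9 and 112 CPM against 156, 98.5, 113 and 99.7 CPM.

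Gpi1, which isomerises glucose 6-phosphate to fructose 6-phosphate, stood at 495, 317 and 308 CPM in the wild-type tumours and at 289, 510.1, 284 and 262 CPM in tumours 13, 14A, 59 and 61. Tumours 19 and 14A were the high ones in both groups. The liver-type phosphofructokinase Pfkl showed the same arrangement, at 188, 57.4 and 84.6 CPM against 125, 211, 100.5 and 102 CPM, as did the platelet-type Pfkp, at 96.2, 62.5 and 64.4 CPM against 56.8, 126, 62.3 and 52.0 CPM. For Pfkl the log2 fold change was 0.31 (SE 0.47), and for Pfkp 0.02 (SE 0.37). Pfkp overlaps Pitrm1 on the opposite strand.

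Aldoa, the main aldolase of muscle and of most other tissues, which splits fructose 1,6-bisphosphate, measured 1146, 4203 and 1989 CPM in tumours 19, 20 and 127 and 641, 1799, 619.6 and 601 CPM in tumours 13, 14A, 59 and 61. Tumour 14A overlapped the wild-type range, and the other tumours of its group did not. The log2 fold change was -1.40 (SE 0.61), -1.96 without tumour 14A and -0.76 without tumour 20. Aldoc, the brain-type aldolase, was low, at 16.04, 0.683 and 1.16 CPM against 1.73, 11.7, 2.65 and 3.12 CPM, again with tumours 19 and 14A highest. Tpi1, which interconverts the triose phosphates, stood at 630.2, 766 and 439.8 CPM in the wild-type tumours and at 311, 617, 305 and 299.7 CPM in tumours 13, 14A, 59 and 61. Only tumour 14A exceeded the lowest wild-type tumour. Tpi1 overlaps Spsb2 on the opposite strand.

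Gapdh (ENSMUSG00000057666, chr6:125161853-125166467, minus strand), the dehydrogenase that makes 1,3-bisphosphoglycerate and a common reference gene, measured 2479, 3145 and 2486 CPM in tumours 19, 20 and 127. It stood at 1519, 2255, 1390.4 and 1336 CPM in tumours 13, 14A, 59 and 61 and at 2211 CPM in 14B. The groups did not overlap, with means of 2703 ± 383 and 1625 ± 427 CPM (SD, n = 3 and 4). Its log2 fold change was -0.71 (SE 0.33), and the unadjusted p of the edgeR fit across all genes, 0.0681, missed 0.05. Gapdh has 58 near-identical copies in the annotation, which together held at most 0.386% of the reads of the family in any tumour.

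Of the enzymes of the energy-yielding steps, Pgk1, which makes ATP from 1,3-bisphosphoglycerate, stood at 739, 408 and 329.8 CPM against 428, 722, 409 and 335 CPM, with overlapping groups. Pgam1, the widely expressed mutase, stood at 248, 76.0 and 65.7 CPM against 172, 132, 129.7 and 148 CPM. Tumours 20 and 127, where Pgam2 was high, were the lowest for Pgam1, and tumour 19 was the highest. The summed mutase level per kilobase (CPM per kb) was 187, 530.0 and 275 in the wild-type tumours and 98.1, 77.5, 81.5 and 97.3 in tumours 13, 14A, 59 and 61.

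Eno1, the widely expressed enolase, stood at 935, 338 and 392 CPM in the wild-type tumours and at 643, 560.3, 679 and 673 CPM in tumours 13, 14A, 59 and 61, with tumours 20 and 127 again lowest. Its copies Eno1b and Gm4735 held 19.1 to 24.1% of the reads of the family, except in tumours 59 and 61, where they held 10.5 and 11.9%, so the Eno1 level is uncertain. With copies summed, no call among the 37 genes changed. Eno2, the neuronal enolase, ran from 4.93 to 12.4 CPM in the primary tumours. Pkm, the pyruvate kinase of muscle and of most tumours, stood at 1686, 1278 and 1427 CPM against 1271, 1733, 1175 and 982 CPM. These groups overlapped, with a log2 fold change of -0.16 (SE 0.32).

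Lactate dehydrogenase was mostly Ldha, the A subunit, which favours lactate formation and stood at 1054, 1072 and 714 CPM against 692, 1002, 575 and 506 CPM. Tumour 14A was again the tumour that overlapped the wild-type range. Ldhb (ENSMUSG00000030246, chr6:142490249-142507957, minus strand), the B subunit of heart and other oxidative tissue, measured 63.2, 85.9 and 29.2 CPM in tumours 19, 20 and 127 and 6.56, 6.94, 24.9 and 20.7 CPM in tumours 13, 14A, 59 and 61. The groups were apart, narrowly between tumours 127 and 59. Ldhb had a log2 fold change of -1.99 (SE 0.60) and a Benjamini-Hochberg adjusted p of 0.198 in edgeR. As a share of lactate dehydrogenase transcripts the groups overlapped, at 7.51, 9.79 and 5.25% against 1.27, 0.929, 5.55 and 5.25%. A near-identical copy of Ldhb, Gm5514, held 5.15 to 7.73% of the reads of the pair in the wild-type tumours and at most 0.278% in the others. With that copy counted in, the Ldhb shares no longer overlapped between the groups (mean difference -4.76 percentage points, exact permutation p = 0.0571).

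**Figure D4:**
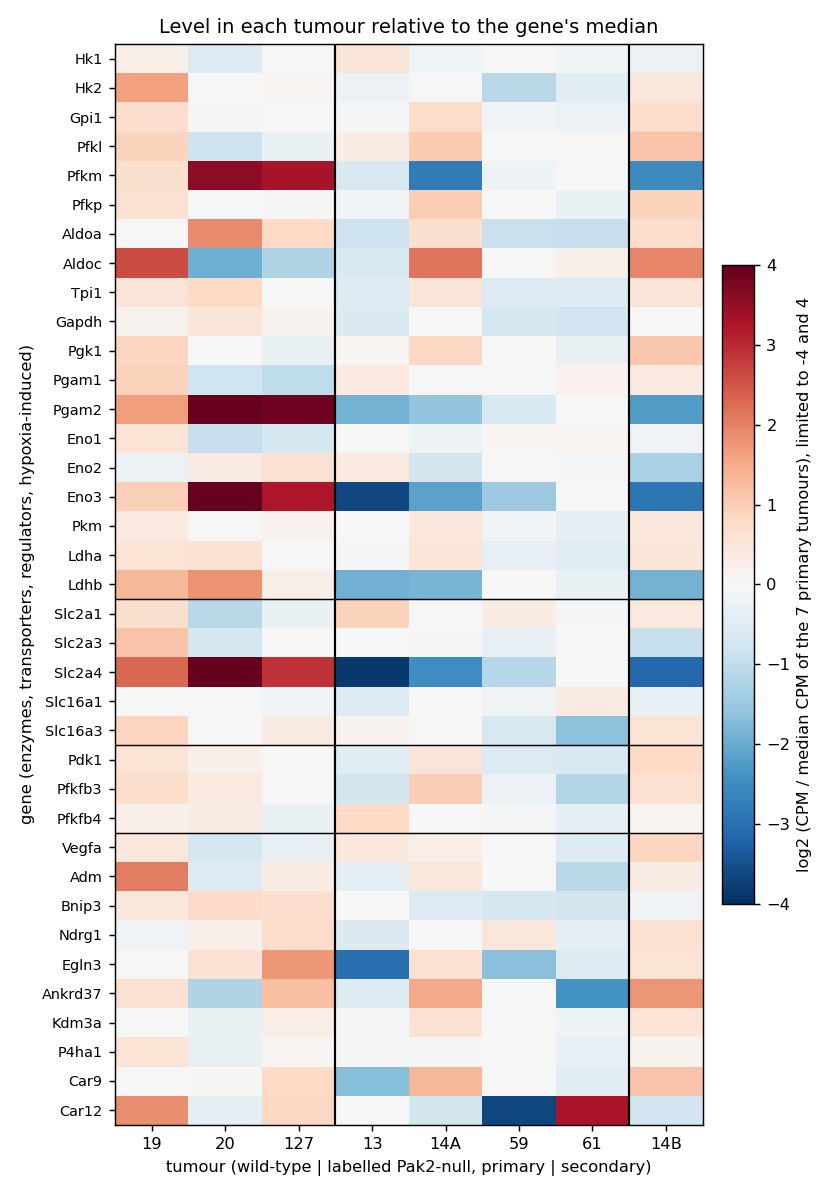
Level of each of the 37 genes in each tumour as log2 of CPM over the gene's median CPM in the 7 primary tumours, on a colour scale limited to -4 and 4; vertical lines separate wild-type, primary labelled Pak2-null and secondary tumours. The muscle-type genes Pfkm, Pgam2, Eno3 and Slc2a4 have their highest values in tumours 20 and 127, and tumour 14A is redder than tumours 13, 59 and 61 for many enzymes.

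Per kilobase, Gapdh and Aldoa were the most abundant of the 37, with primary-tumour means of 1470 and 1014 CPM per kb, followed by Pkm (561 CPM per kb) and Ldha (454 CPM per kb). Tpi1 and Eno1 were next and nearly equal, at 299 and 297 CPM per kb. The lowest were Aldoc, Car9 and Car12, at 1.90, 1.77 and 1.53 CPM per kb. Aldoa ran from 388 to 2713 CPM per kb between tumours, and Gapdh from 941 to 2215 CPM per kb, and Aldoa exceeded Gapdh in tumour 20 only.

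The remaining transporters had overlapping groups. Slc2a1 measured 92.5, 27.3 and 48.6 CPM in tumours 19, 20 and 127 and 112, 58.8, 71.5 and 56.8 CPM in tumours 13, 14A, 59 and 61, a log2 fold change of 0.44 (SE 0.45) that ran from 0.11 without tumour 20 to 0.98 without tumour 19. Slc2a3, the high-affinity glucose transporter GLUT3, stood at 31.6, 8.75 and 14.5 CPM against 14.1, 14.9, 11.4 and 14.4 CPM. Tumour 19 alone was high for it. Slc16a1, the monocarboxylate transporter MCT1, kept to 28.8 to 52.6 CPM in all primary tumours, with a log2 fold change of 0.01 (SE 0.24). Slc16a3, the transporter MCT4 that exports lactate, stood at 157, 85.2 and 111 CPM against 95.6, 87.0, 56.0 and 27.6 CPM, lowest in tumour 61, with a log2 fold change of -0.80 (SE 0.44).

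The 3 regulators also overlapped. Pdk1, a kinase that inhibits pyruvate dehydrogenase in the mitochondrion, stood at 76.8, 61.3 and 52.8 CPM against 37.5, 75.3, 35.8 and 34.7 CPM, and only tumour 14A of the second group reached the wild-type range. Pfkfb3, which makes the activator of phosphofructokinase, stood at 92.4, 75.3 and 57.2 CPM against 34.7, 112, 48.3 and 25.4 CPM, with the same exception. Pfkfb4, its relative, stood at 30.6, 32.7 and 22.1 CPM against 46.5, 26.8, 26.2 and 20.8 CPM, highest in tumour 13. In that order the log2 fold changes were -0.45, -0.42 and 0.11, with SEs of 0.33, 0.51 and 0.33.

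Of the 10 hypoxia-induced genes, 7 had log2 fold changes below 0, and Bnip3 was the one whose groups did not overlap. Bnip3 (ENSMUSG00000078566, chr7:138890836-138909519, minus strand), a HIF target whose product marks mitochondria for autophagy, measured 84.7, 105 and 98.3 CPM in tumours 19, 20 and 127. It stood at 62.3, 42.7, 38.8 and 37.4 CPM in tumours 13, 14A, 59 and 61 and at 56.7 CPM in 14B. Neither tumour 19 nor tumour 14A was far from its own group here. The means were 96.1 ± 10.5 and 45.3 ± 11.5 CPM (SD, n = 3 and 4), a log2 fold change of -1.06 (SE 0.24) with a Benjamini-Hochberg adjusted p of 0.123 in edgeR. Leaving out each tumour in turn gave log2 fold changes from -1.26 to -0.98.

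The other hypoxia-induced genes overlapped between the groups. Vegfa, the main growth factor of blood vessels, stood at 170.3, 77.3 and 99.7 CPM against 168, 151, 125 and 86.4 CPM, a log2 fold change of 0.22 (SE 0.36). Adm, which encodes the vasodilator adrenomedullin, stood at 35.5, 5.96 and 10.5 CPM against 6.50, 11.7, 8.52 and 3.93 CPM, high in tumour 19 only. Egln3, the HIF-induced prolyl hydroxylase PHD3, which acts back on HIF, stood at 47.2, 69.9 and 159 CPM against 5.82, 71.5, 14.9 and 33.2 CPM. Tumour 14A was the one that overlapped. The log2 fold change of -1.53 (SE 0.81) was -2.34 without tumour 14A and -0.90 without tumour 127.

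P4ha1, a prolyl hydroxylase of collagen, stayed between 143 and 262 CPM, and Kdm3a, a histone demethylase, between 38.6 and 69.0 CPM in the primary tumours. Ndrg1, a stress-induced gene, ran from 42.0 to 103 CPM without a separation of groups. The carbonic anhydrase genes, whose products handle the acid that glycolysis releases, were low. Car9 stood at 3.01, 3.10 and 5.26 CPM against 0.929, 7.61, 3.02 and 2.19 CPM. Car12 stood at 8.30, 1.74 and 4.04 CPM against 2.29, 1.39, 0.185 and 21.8 CPM, and its sign depended on tumour 61: the log2 fold change was 0.46 (SE 1.36) and -1.83 without that tumour. Ankrd37, at 0.462 to 6.89 CPM in the primary tumours, overlaps Ufsp2 on the opposite strand, which has over 10 times its counts.

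Tumour 14A was the highest of the 4 primary tumours labelled Pak2-null for 20 of the 37 genes, and for 36.2% of all genes tested. Over all 7 primary tumours, tumour 19 was the highest for 11 of the 37 genes (16.1% of all genes tested), tumour 20 for 10 (10.3%) and tumour 14A for 8 (24.9%). Tumour 61 was the lowest for 15 of the 37 (6.30% of all genes tested) and tumour 19 for 0 (16.9%). Without tumour 14A, Aldoa, Tpi1, Gapdh, Pdk1, Pfkfb3 and Egln3 joined the 7 genes lower at an unadjusted p under 0.05. In that fit 0 of the 37 passed edgeR's adjusted test, against 8 of 15086 genes. Beside these values, 10 lymphocyte markers summed to 2096 CPM in tumour 14A against 84.0 to 303 CPM in tumours 13, 59 and 61, 8 neutrophil markers to 355 against 20.0 to 53.5 CPM, and 9 macrophage markers to 11338 against 3418 to 5046 CPM. The part of these cells, and of the pancreas and fibroblast markers given above, was not tested.

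The secondary tumour 14B was compared with primary tumour 14A, which shares its number, without a test since each is 1 tumour. None of the 37 genes was lower in 14B by at least 1 on the log2 scale, where 7.09% of all genes tested were, and none was higher by as much, where 8.89% were. The largest differences in log2 CPM, 14B minus 14A, were -0.97 for Slc2a3, -0.76 for Eno3 and -0.62 for Pgam2 on the low side and 0.61 for Ndrg1 and 0.58 for Vegfa on the high side. Vegfa stood at 226 CPM in 14B against 151 CPM in 14A, and Slc2a3 at 7.57 against 14.9 CPM. Other enzymes differed less, with Eno2 at -0.56, Hk2 at 0.46 and Pgam1 at 0.40, and the abundant ones were close: Gapdh stood at 2211 and 2255 CPM, Pkm at 1702 and 1733 CPM, and Ldha at 995 and 1002 CPM in 14B and 14A.

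**Figure D5:**
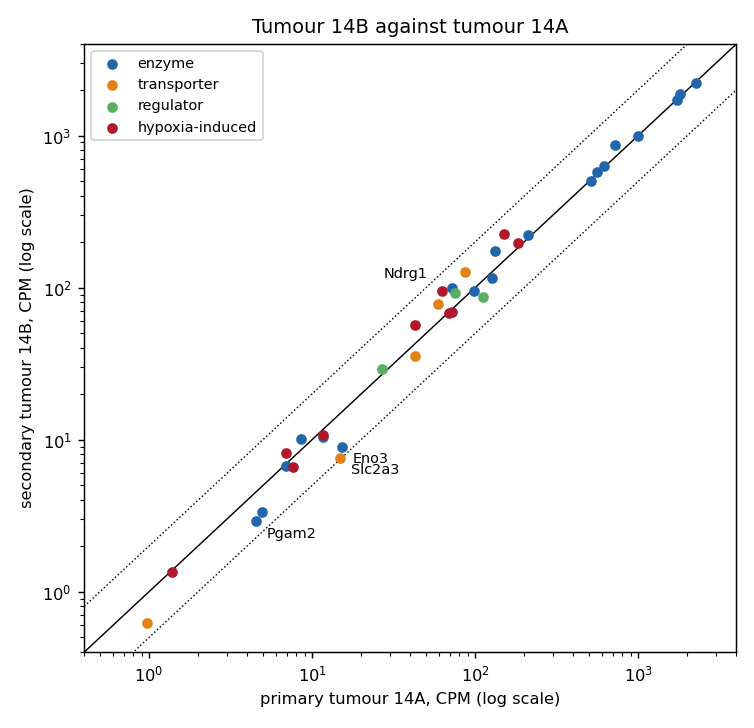
CPM of the 37 genes in secondary tumour 14B against primary tumour 14A on log axes, coloured by role; the solid line marks equal levels and the dotted lines a difference of 1 on the log2 scale. No point lies outside the dotted lines; genes that differ by more than 0.6 on the log2 scale are named.

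The genes that control HIF itself were read from a list of 10, of which 0 passed edgeR's adjusted test. At an unadjusted p under 0.05, 2 were lower and 1 was higher, where 8.55% and 4.39% of all genes tested were. Hif1an, which encodes the asparagine hydroxylase that silences HIF when oxygen is present, measured 100.7, 132 and 129 CPM in tumours 19, 20 and 127 and 49.2, 45.2, 53.5 and 54.7 CPM in tumours 13, 14A, 59 and 61. The groups were well apart, with a log2 fold change of -1.23 (SE 0.19) and a Benjamini-Hochberg adjusted p of 0.0857 in edgeR, lower than that of any of the 37 genes. Egln1, the main oxygen-sensing prolyl hydroxylase, stood at 113, 105 and 121 CPM against 82.4, 84.3, 70.9 and 76.5 CPM, and the HIF competitor gene Cited2 at 50.1, 81.2 and 79.8 CPM against 153, 144, 129.5 and 71.3 CPM. Hif1a, the oxygen-regulated subunit, overlapped between the groups, at 152, 117 and 108 CPM against 154, 120, 207 and 168 CPM. Among 23 other tested HIF targets, 0 passed, and the median log2 fold change was -0.22, against 0.06 over all genes tested. At an unadjusted p under 0.05, 3 (Stc2, Bhlhe40 and Hmox1) were lower and 0 higher, against the same 8.55% and 4.39%.

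Neighbouring pathways gave 0 genes that passed edgeR's adjusted test as well. Of 19 other tested glycolysis genes, 4 were lower and 1 was higher at an unadjusted p under 0.05, against 8.55% and 4.39% of all genes. Bpgm, which makes the haemoglobin regulator 2,3-bisphosphoglycerate and is abundant in red cells, stood at 66.6, 51.3 and 32.3 CPM against 15.4, 12.7, 11.7 and 14.8 CPM, and Slc2a12, a glucose transporter gene of muscle and fat, at 5.28, 6.70 and 9.50 CPM against 0.124, 0.668, 0.123 and 0.289 CPM. Neither gene's groups overlapped. The 7 red cell markers summed to 2880, 177 and 199 CPM in the wild-type tumours and to 14.6, 106, 64.9 and 28.1 CPM in tumours 13, 14A, 59 and 61, and their part in the Bpgm values was not tested.

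Of 12 genes of pyruvate transport and of pyruvate dehydrogenase and its regulation, 5 were lower and 0 higher at an unadjusted p under 0.05. Over all genes tested the shares were 8.55% lower and 4.39% higher, for this list and for those that follow. Pdk4, the pyruvate dehydrogenase kinase of fasted muscle, stood at 31.2, 160 and 167 CPM against 1.67, 4.63, 11.2 and 9.53 CPM, high in the same tumours 20 and 127 as the muscle markers. Of 17 tricarboxylic acid cycle genes, 3 were lower and 0 higher. Of 8 pentose phosphate genes, which branch off glucose 6-phosphate, 0 were lower and 1 was higher, the epimerase gene Rpe at 20.4, 30.1 and 23.2 CPM against 35.2, 57.9, 33.5 and 40.2 CPM. Of 6 tested gluconeogenesis genes, 2 were lower and 0 higher, among them Pcx at 59.8, 77.1 and 52.2 CPM against 6.19, 10.3, 3.83 and 37.8 CPM.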

How the data were processed

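Bulk RNA sequencing was measured in 8 mouse tumours. The authors deposited whole-number read counts per gene, not normalised, with 1 column per tumour, and gene lengths. STAR, HTSeq and the builds GRCm38 and mm10 are named per the submitters' processing notes. For versions, annotation and strand setting, nothing is given in the sources used here. Members and lists were chosen with earlier results of these data known.

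The 37 genes were found by name. Counts were fitted in edgeR 4.0.16 (R 4.3.3) on the whole table, with TMM and filterByExpr (minimum count 10, minimum total 15), which left 15412 of 35275 genes and all 37. The quasi-likelihood test had no covariate and Benjamini-Hochberg adjustment at 0.05. Each SE was derived from the log2 fold change and its F statistic. Tumour 14B entered no main test; differences of log2 CPM used a prior count of 2. Alternatives were DESeq2 1.42.0, limma 3.58.1 with voom, other normalisations, no filter, summed copies, other uses of 14B and leaving out each tumour. Copies were found with BLAST 2.17.0 (at least 95% identity over 80%) in GENCODE M21 transcripts. Only the edgeR, DESeq2 and limma-voom fits were tried on simulated data, with the same dispersion for every gene. All 37 genes are described, with per-tumour values for those at an unadjusted p under 0.05 or with groups apart and for the main gene of each step; other lists give up to 3 genes by lowest p. The Hif1a values were added after they were seen.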

Additional observations from a re-analysis of the deposited data

Results flagged for a closer look

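In 7 of the 37 genes, 1 of the 4 primary tumours labelled Pak2-null stood far from the other 3, with a gap to its neighbour that took up more of the group's range than Dixon's 95% critical value. Chance flags about 1 in 20 groups of this size, and the genes are not independent of each other. In 6 of them it was the highest tumour, 14A: Gpi1 at 510.1 CPM, Pfkp at 126 CPM, Aldoa at 1799 CPM, Aldoc at 11.7 CPM, Tpi1 at 617 CPM and Pdk1 at 75.3 CPM. In Car12 it was tumour 61, at 21.8 CPM. The share of all genes tested with such a flag was not counted, and tumour 14A was the highest of the 4 for 36.2% of all genes tested.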

How the results depend on the processing

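The 0 genes passing edgeR's adjusted test became 6 with DESeq2, 7 with limma-voom and quality weights and 2 (Pgam2 and Slc2a4) with tumour 14B counted as labelled Pak2-null, all lower. Leaving out 1 tumour gave 0 to 1, the latter without tumour 19. Over all genes, those fits passed 59 genes without tumour 19, 8 without 14A and 1 without 127. They passed 0 without tumour 20, 13, 59 or 61. The 7 genes lower at an unadjusted p under 0.05 became 14 with quality weights, which also gave 3 higher. Those 3 were Eno1, Pgam1 and Slc2a1, at log2 fold changes of 0.81, 0.83 and 0.97. Leaving out 1 tumour gave 6 to 13 lower and 0 to 2 higher, the 2 (Pgam1 and Eno1) without tumour 19. The median log2 fold change of -0.30 was -0.54 with wild-type tumour 19 alone and ran from -0.66 to -0.20 with 1 tumour left out. Over all genes tested, 1149 passed DESeq2, 950 limma-voom with quality weights and 191 edgeR with tumour 14B counted in, against 11. With quality weights, the share of all genes at an unadjusted p under 0.05 was not counted. With 1 tumour left out it was counted only without tumour 14A, where 10.1% were lower. The causes were not tested.

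The genes below changed sign at values that passed no test. With 1 tumour left out, log2 fold changes ran from -0.036 to 0.30 for Hk1, -0.40 to 0.11 for Gpi1, -0.36 to 0.23 for Pfkp, -1.24 to 2.38 for Aldoc, -0.31 to 0.36 for Pgk1, -0.15 to 1.04 for Pgam1, -0.031 to 0.81 for Eno1, -0.73 to 0.24 for Slc2a3, -0.14 to 0.14 for Slc16a1, -0.19 to 0.25 for Pfkfb4, -0.00028 to 0.59 for Vegfa, -1.15 to 0.26 for Ankrd37, -0.078 to 0.24 for Kdm3a, -0.41 to 0.0062 for P4ha1, -0.87 to 0.19 for Car9 and -1.83 to 1.16 for Car12. The difference in Aldoc's share ran from -0.143 to 0.238 percentage points. With upper quartile and library size scaling, Pfkp was at -0.017 and -0.034 and Slc16a1 at -0.016 and -0.019. With limma-voom, values were -0.048 for Pfkp, 0.52 for Aldoc, 0.00022 for Pgk1, -0.018 for Slc16a1 and -0.996 for Car12. With quality weights they were -0.086 for Pfkp, 1.34 for Aldoc, 0.037 for Pgk1, 0.13 for Slc2a3, -0.069 for Pfkfb4, 0.031 for P4ha1 and -1.26 for Car12. With 14B counted in, they were 0.0054 for Gpi1, 0.011 for Aldoc, 0.19 for Pgk1, -0.032 for Slc16a1, 0.21 for Ankrd37 and 0.11 for Car9. With tumour 19 alone, chosen after seeing the data, they were -0.12 for Hk1, -0.42 for Pfkl, -0.31 for Pfkp, -0.71 for Pgam1, -0.50 for Eno1, 0.25 for Eno2, -0.25 for Slc2a1, -0.022 for Slc16a1, -0.30 for Vegfa, 0.13 for Ndrg1, 0.25 for Car9 and -0.33 for Car12.

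With library size scaling, 3 genes (Slc2a3, Eno3 and Pgam2) were lower in 14B than in 14A by at least 1 on the log2 scale. The median of all genes tested shifted to -0.40, and the share of all genes lower by as much was not counted with that scaling. Among the 8 genes whose groups were apart, 0 changed direction in the 18 alternatives. Their choice as apart largely fixed this in advance, above all where a tumour was left out, so it is no separate support. At 3 against 4 tumours the share tests could not reach 0.05, and counting error limits Car9, Car12, Ankrd37 and Aldoc. It also limits the low values of Slc2a4, at 6 counts in tumours 13 and 14B and 19 in 14A. The same holds for Pgam2 in 14B, at 28 counts.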
